A study of Arabidopsis thaliana with 57 samples.

Results

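The genes described here are those of the mitochondrial genome of Arabidopsis thaliana, taken as every gene of the expression table whose identifier starts with ATMG. There are 146 such genes among 28775 in the table. The whole set was kept and split by the mean level over 51 libraries, at 3 on the rlog scale, a log2 scale on which the authors deposited their values. In all, 14 genes had a mean of 3 or more and 132 had a lower mean. The rule for the set uses identifiers and no values.

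Plant mitochondria keep a small genome of their own. It encodes part of the respiratory chain (complexes I, III, IV and V), proteins that attach haem to c-type cytochromes, some ribosomal proteins, and ribosomal and transfer RNAs. Most mitochondrial proteins are encoded in the nucleus and imported, including chaperones, most respiratory subunits, and the polymerases and RNA-binding proteins that transcribe, splice and edit mitochondrial RNA. Mature plant mitochondrial messengers carry no stable poly(A) tail, unlike nuclear ones. How RNA was selected for the libraries is not given in the sources used here.

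RNA came from rosette leaves of wild-type Col0 plants, the usual laboratory accession, all 18 days old at harvest. Standard growth was at 22 °C in the light and 18 °C in the dark, with a light intensity of 120 µmol per square metre and second, and the 3 control libraries belong to the recovery setup. In the end-point groups the stress started on day 15 and plants were harvested under it. In the recovery groups it started on day 12 and was followed by 3 days of standard growth. Cold meant 12 °C in the light and 8 °C in the dark, with light lowered to 80 of these units (Cold) or raised to 200 (Cold-HL). Heat meant 27 °C in the light and 23 °C in the dark, and HL was high light of 350 units. Drought was a shortage of water, Humidity a sealed tray with excess water, and Heat-HL and Heat-drought were combinations. Each of the 17 groups has 3 libraries, and heat, drought and high light combined was not analysed here. Nothing in the labels says that replicates are separate cultures, so p-values measure the spread between these libraries, which may be technical.

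Library depth is unknown, because the values are rlog and not counts. Replicates of a group correlated at 0.98 to 0.998 over genes, and no pair of libraries was identical. Photosynthetic leaf markers were high in every library (RBCS1A, a Rubisco small subunit, had a mean of 17.95), while markers of root hairs, pollen and seeds had means of 0.06 or less. The mean of 6 leaf markers, among them MYB60 with a mean of 7.28, was 15.2 to 15.4 in the control libraries. It was lower in Drought (14.5 to 15.1) and Heat-drought (13.6 to 14.5) end-point, and 1 library of Cold-HL recovery, replicate 2, stood apart at 13.2. In Heat end-point it was 15.03 to 15.18, just below the lowest control library at 15.23. The median over the 19010 genes tested was shifted from the control by 0.73 in Heat-drought end-point, 0.54 in Drought, 0.51 in Cold-HL and 0.34 in Cold on the log2 scale. In the other groups it was shifted by 0.13 or less. Differences are therefore given relative to the library median, as the main result, and also as deposited. In bulk leaf RNA, fewer cells of a type and less RNA per cell cannot be told apart.

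Copies of mitochondrial DNA in the nucleus bear on what an ATMG value counts, so some of the shared sequence is shown first. In the RefSeq genome TAIR10.1 (the files use TAIR10), 72.7% of the 367808 bases of the mitochondrial genome had a nuclear match of at least 99% identity over at least 150 bases. Matches on chromosome 2 alone, within chr2:3239038-3509765, covered 72.6%. RefSeq notes pair 45 of the 146 ATMG genes with 46 nuclear genes there. Aligned with the mitochondrial genome, these nuclear genes had a lowest identity of 99.72% and a median of 99.97%. All 46 nuclear counterparts are in the table and none had a mean rlog of 3 or more. Of the 45 ATMG partners, 5 had such a mean and 17 were listed at 0 in every library.

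The notes name 3 of the 14 measurable genes by function. ATMG00220 is apocytochrome b (cob), the cytochrome of complex III. ATMG00900 belongs to cytochrome c biogenesis (ccmC), which serves the attachment of haem. ATMG00210 is ribosomal protein L5. The first 120 bases of the cob and ccmC coding sequences are printed to show that the mitochondrial and nuclear copies are the same letters, with the start codon in capitals.
cob, mitochondrial bases 182739 to 182858, minus strand: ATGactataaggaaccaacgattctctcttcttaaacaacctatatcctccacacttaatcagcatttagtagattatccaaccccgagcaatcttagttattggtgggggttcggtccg
cob copy, chr2:3450863-3450982, plus strand, in AT2G07727: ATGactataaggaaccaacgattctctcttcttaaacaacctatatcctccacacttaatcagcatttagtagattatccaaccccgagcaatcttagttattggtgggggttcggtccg
ccmC, mitochondrial bases 308298 to 308417, plus strand: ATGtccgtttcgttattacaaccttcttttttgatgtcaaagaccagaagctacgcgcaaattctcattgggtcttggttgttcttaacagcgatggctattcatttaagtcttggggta
ccmC copy, chr2:3290231-3290350, plus strand, in AT2G07681: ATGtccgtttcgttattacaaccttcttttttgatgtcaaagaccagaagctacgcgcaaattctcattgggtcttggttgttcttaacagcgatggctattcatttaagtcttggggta

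The ccmC start stands a further time on the minus strand at chr2:3240344-3240463, in AT2G07771. Among the noted partners of measurable genes, AT2G07681, the partner of ATMG00900, matches the longest stretch of mitochondrial DNA. It has 4838 bases at 99.917% identity, a stretch that holds the 771 bases of ccmC and further DNA. AT2G07706, the partner of ATMG00470, an "unknown protein" in the notes, matches 4640 bases of mitochondrial DNA at 100% identity. AT2G07773, the partner of ATMG00910, also an "unknown protein", differs from the mitochondrial DNA at 1 of its 1770 bases. Windows of 61 bases around that base are shown next, with the differing base in capitals. The line marked ATMG00910 is the mitochondrial DNA aligned with AT2G07773, and whether the base lies within ATMG00910 was not tested.
AT2G07773, chr2:3240990-3241050, plus strand: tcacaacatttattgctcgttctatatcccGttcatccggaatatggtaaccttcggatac
ATMG00910, mitochondrial bases 307711 to 307771, minus strand: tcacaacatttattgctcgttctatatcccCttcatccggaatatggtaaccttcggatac

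Mean rlog was 4.05 for ATMG00220, and the partner AT2G07727 was listed at 0 in every library. It was 4.05 for ATMG00900, with −2.37 and −2.27 for AT2G07681 and AT2G07771. ATMG00470 had 8.63 and AT2G07706 had −2.07, while ATMG00910 had 4.67 and AT2G07773 had −2.37. How the counting treated reads that match several places, and whether it used strand, are not given in the sources used here. The level of a gene with such a copy is therefore uncertain as that of a single gene. Of 37 mitochondrial RefSeq genes of the named classes, 21 had all their bases in a nuclear match and 9 had none. The classes differed: 6 of 9 ribosomal protein genes and 4 of 5 cytochrome c maturation genes were fully copied. So were 4 of 9 complex I genes and 0 of 3 ribosomal RNA genes. The 9 ribosomal protein genes include the pseudogenes rps14, fully copied, and rps19, with no match.

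Most mitochondrion-encoded genes were hardly measured. Of the 146, 9.59% had a mean of 3 or more, against 66.06% of all genes and 46.62% of the 133 chloroplast-encoded genes. In all, 58 genes (39.73%) were listed at 0 in every library, against 9.23% of all genes. The other 74 below 3 hardly moved: the median range over the 51 libraries was 0.05 and the largest 0.44, for ATMG01350. No gene lay between 5 and 7, so the measurable genes formed an upper set of 6 and a lower set of 8. Rlog values are not divided by gene length, so an order of levels between genes does not rank their abundance.

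**Figure D1:**
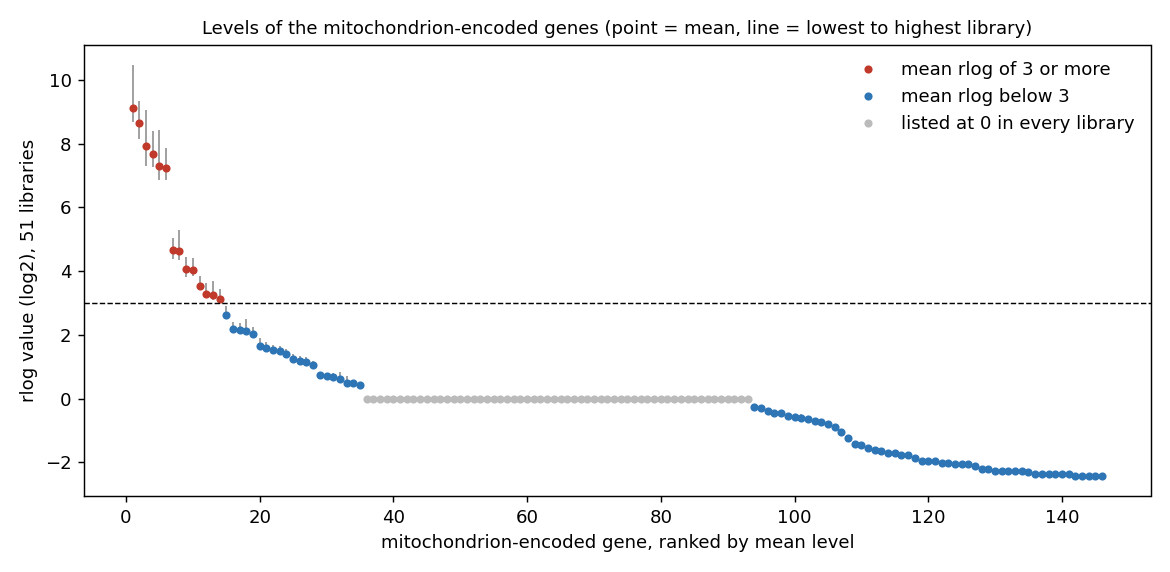
Mean rlog value (log2) of each of the 146 mitochondrion-encoded genes over 51 libraries, ranked, with a line from the lowest to the highest library. The 6 highest genes stand apart at 7.24 to 9.13, 8 lie between 3.13 and 4.67, and 58 sit at 0.

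The upper set held ATMG00513 (mean 9.13), ATMG00470 (8.63), ATMG00516 (7.92), ATMG00090 (7.67), ATMG00060 (7.30) and ATMG00460 (7.24). The lower set held ATMG00910 (4.67), ATMG01390 (4.64), ATMG00900 (4.05), ATMG00220 (4.05), ATMG00850 (3.52), ATMG00070 (3.29), ATMG00750 (3.24) and ATMG00210 (3.13). Just below 3 were ATMG00580 (2.64), ATMG00020 (2.18) and ATMG01370 (2.16). The lowest means, all −2.42, were those of ATMG00600, ATMG00790, ATMG00720, ATMG00300 and ATMG01270, the last noted as ribosomal protein S7. Genes given by identifier alone are not named in the tables used here. RefSeq lists nad1 and nad5 of complex I in 3 parts or copies each. Whether several ATMG identifiers are parts of the same gene was not tested.

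Cold gave the clearest rises, and they were of ATMG00060 and ATMG00090. For ATMG00060 the deposited values were 7.38, 7.23 and 7.18 in control and 8.10, 8.14 and 7.97 in Cold. In Cold-HL they were 8.43, 8.18 and 8.02. All 6 cold libraries lay above all 3 control libraries, also after centring on the library median. Relative to the median, ATMG00060 rose by 0.47 ± 0.11 (SE, n = 3) in Cold, an adjusted p of 0.00108, and by 0.43 ± 0.11 in Cold-HL, an adjusted p of 0.00138 (limma over all genes, Benjamini-Hochberg). As deposited it rose by 0.81 and 0.94. Nuclear genes of like level, whose mean lay within 0.25 of its own, had upper quartiles of 0.48 and 0.67 as deposited.

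For ATMG00090 the control libraries held 7.66, 7.33 and 7.41, and the Cold libraries 8.35, 8.24 and 8.14. The groups did not overlap. It rose by 0.44 ± 0.08 (SE, n = 3; limma adjusted p 2.74e-05) in Cold relative to the median and by 0.78 as deposited. The upper quartile of nuclear genes of like level was 0.49 in Cold as deposited. In Cold-HL, with 8.32, 8.14 and 8.10, the rise was 0.21 ± 0.08 and the limma adjusted p was 0.0245. As deposited the rise there was 0.72, with an upper quartile of 0.71 for nuclear genes of like level. The Cold-HL call was lost without Cold-HL replicate 1 (0.16, adjusted p 0.144), without control replicate 2 (0.16, adjusted p 0.125) or without control replicate 3 (0.20, adjusted p 0.0589).

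Among the 14 genes tested, 7 were called in Cold and 9 in Cold-HL at an adjusted p under 0.05, against 39.9% and 52.7% of all genes tested. The shares of the members lie near those backgrounds. Without control replicate 2 the count in Cold was 3. The other called genes all belonged to the lower set, 5 in Cold and 7 in Cold-HL, each lower relative to the median, as 21.7% and 29.4% of all genes were. None of the 14 was called lower as deposited, as 2.17% and 2.53% of all genes were. Medians of the lower set were −0.23 in Cold and −0.31 in Cold-HL relative to the median, and 0.11 and 0.20 as deposited. Rlog pulls values of genes with few reads towards their mean. Nuclear genes whose mean lay within 0.25 of a gene of the lower set had medians, as deposited, of 0.030 to 0.093 in Cold. In Cold-HL these medians were 0.053 to 0.158, and in each they lay below the shift of the whole table. The lower set itself ran, as deposited, from 0.026 to 0.228 in Cold and from 0.088 to 0.370 in Cold-HL. In Cold-HL each of its genes lay above the median of its own like-level genes. In Cold all but ATMG00900 and ATMG01390 did. These differences from like-level genes were not tested.

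**Figure D2:**
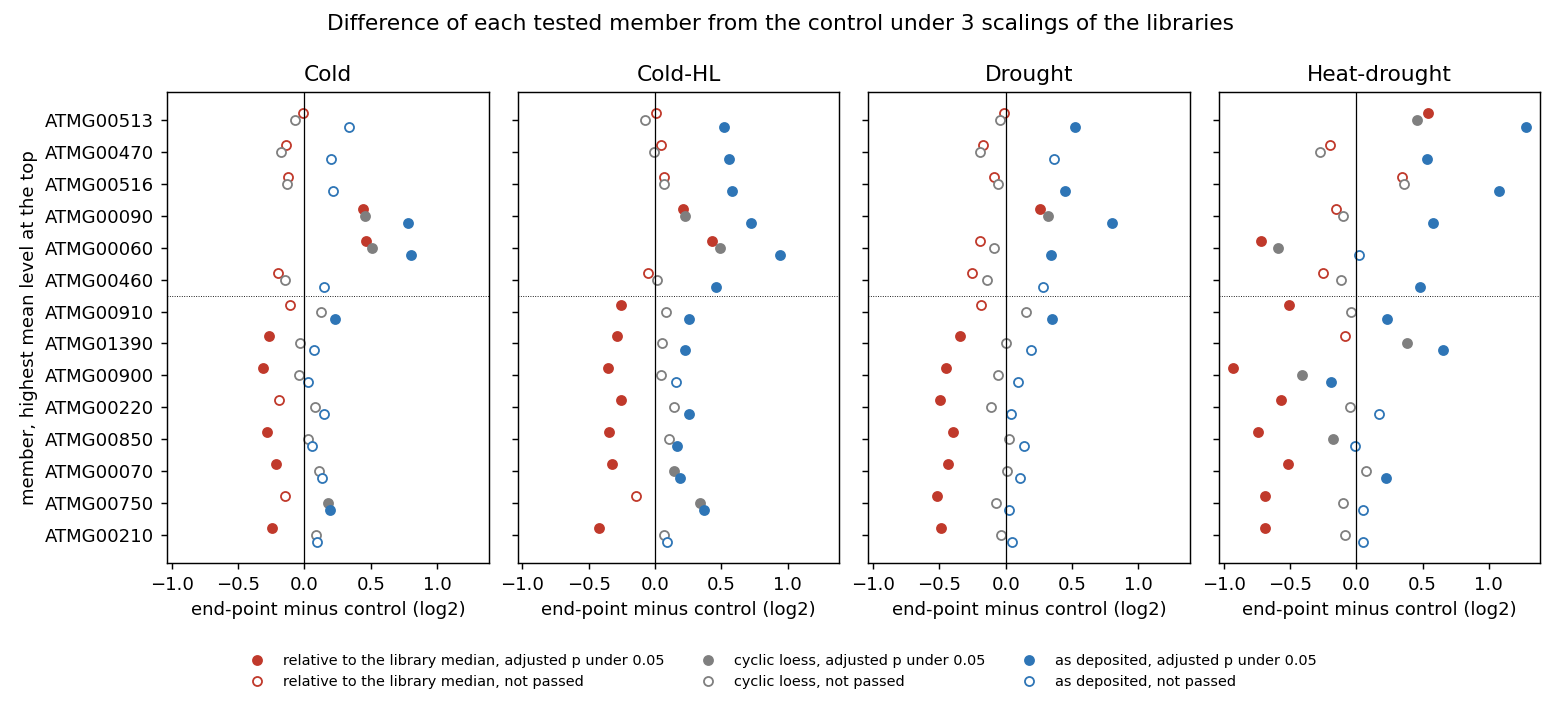
Difference between end-point and control (log2) of the 14 tested mitochondrion-encoded genes in 4 stresses, under 3 ways of scaling the libraries, with filled points for an adjusted p under 0.05. In Cold and Cold-HL, ATMG00060 and ATMG00090 lie above 0 under each scaling, while genes below the dotted line, the lower set, change sign with it.

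Under cyclic loess, a scaling that lets the shift differ with level, 3 genes were called higher and none lower in Cold, and 4 higher and none lower in Cold-HL, against 33.5% and 44.2% of all genes called. ATMG00060 rose by 0.51 and 0.49, and ATMG00090 by 0.45 and 0.23, under that scaling. The third gene it called higher was ATMG00750 of the lower set, by 0.18 in Cold (limma adjusted p 0.00934) and 0.34 in Cold-HL. ATMG00750 differed by −0.15 and −0.14 relative to the median, with no call, so its direction depended on the scaling. ATMG00070 was the fourth in Cold-HL, 0.15 higher under loess but 0.33 lower relative to the median.

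The other 4 genes of the upper set did not pass the test in either cold group relative to the median. ATMG00513 differed by −0.01 in Cold and 0.01 in Cold-HL. ATMG00470 differed by −0.14 and 0.05, ATMG00516 by −0.12 and 0.07, and ATMG00460 by −0.20 and −0.05. As deposited, all 6 genes of the upper set were called higher in Cold-HL, where the whole table had shifted by 0.51, and 2 in Cold. So were 68.2% and 54.2% of all genes tested. Libraries of Cold end-point were spread widely for these genes, with ATMG00513 at 9.80 in replicate 1 and at 8.88 and 9.05 in the others.

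Drought raised ATMG00090. Its deposited values were 8.39, 8.14 and 8.26 in Drought, all above the control range of 7.33 to 7.66. It rose by 0.26 ± 0.08 (SE, n = 3; limma adjusted p 0.00359) relative to the median, by 0.80 as deposited and by 0.32 under loess. Nuclear genes of like level had an upper quartile of 0.79 in Drought as deposited, close to that 0.80. ATMG00060 did not pass, with −0.19 relative to the median and −0.09 under loess, though it was called 0.34 higher as deposited. The difference of ATMG00513 was −0.02 relative to the median. Of the 14 genes, 8 were called, against 67.5% of all genes tested. The other 7 were genes of the lower set called lower relative to the median, by 0.35 to 0.51, as 42.2% of all genes were. As deposited each of those 7 was above the control by 0.02 to 0.19 with no call, while 61.4% of all genes were called higher. Of the 6 leaf markers, 5 were called lower in Drought and 6 in Heat-drought, with medians of −1.22 and −1.95 relative to the median. As deposited 3 and 5 were lower, with medians of −0.68 and −1.22, and under loess 3 and 2, with 2 higher in Drought. Their part in the results of these groups was not tested.

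In Heat-drought ATMG00513 rose and ATMG00060 fell relative to the library median, though ATMG00060 differed by 0.02, with no call, as deposited. After centring on the median ATMG00513 held 9.44, 9.54 and 9.88, against 9.01, 9.15 and 9.07 in control, with no overlap. It rose by 0.54 ± 0.21 (SE, n = 3) relative to the median, with a limma adjusted p of 0.0166, and by 1.28 as deposited. Under loess the rise was 0.46 (adjusted p 0.043), and under quantile scaling the difference was 0.37 with no call (adjusted p 0.0904). Without Heat-drought replicate 3 it was 0.41, with an adjusted p of 0.103. Nuclear genes of like level had a median of 0.83 as deposited, with quartiles of 0.33 and 1.30. The 1.28 of ATMG00513 lay between these quartiles.

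ATMG00060 held 7.37, 7.49 and 7.0 in Heat-drought, which overlaps the control as deposited. After centring on the median the values were 6.80, 6.92 and 6.42, all below the control range of 7.39 to 7.45. It fell by 0.72 relative to the median (SE 0.11, limma adjusted p 3.17e-07) and by 0.59 under loess, but was 0.02 higher as deposited. ATMG00516 held 8.74, 8.65 and 9.07, above 7.70, 7.78 and 7.73 in control. It was called 1.08 higher as deposited and did not pass relative to the median, at 0.34 with an adjusted p of 0.0693. Nuclear genes of like level had quartiles of 0.28 and 1.19 for ATMG00516, which lay between them as deposited. For ATMG00060 the quartiles were 0.19 and 1.07, and its 0.02 lay below them.

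In Heat-drought 9 of the 14 genes were called, against 78.6% of all genes tested. In the lower set 7 of 8 were called lower relative to the median, as 46.5% of all genes were, and the median of the 8 was −0.62, against 0.11 as deposited. ATMG00900 (ccmC) was the one gene called lower under every scaling. Its values were 3.87, 4.03 and 3.82, against 3.96, 4.27 and 4.07 in control. These groups overlap as deposited. It fell by 0.93 relative to the median, by 0.41 under loess and by 0.19 as deposited (limma adjusted p 0.0416). ATMG00850 fell by 0.74 relative to the median and by 0.18 under loess, with −0.01 and no call as deposited.

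ATMG00220 (cob) held 4.13, 4.14 and 4.20 in Heat-drought and 4.00, 3.97 and 3.99 in control. It was called 0.56 lower relative to the median, but was 0.17 above the control as deposited with no call, and −0.04 under loess. ATMG00210 (ribosomal protein L5) was in the same position, at −0.69, 0.05 and −0.09. ATMG01390 went the other way, with 5.18, 5.17 and 5.29 against 4.67, 4.59 and 4.42 in control. It was 0.65 higher as deposited and 0.38 higher under loess, but differed by −0.08 relative to the median.

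Mild heat, high light and their combination changed none of the 14 genes past the test. Limma called 0 in Heat, Heat-HL and HL, against 0.8%, 0.242% and 1.09% of all genes tested. At an unadjusted p under 0.05 there were 1, 4 and 4 of the 14, against 13.8%, 8.33% and 15.2% of all genes. Cyclic loess also called 0 in each, against 2.28%, 0.5% and 1.73% of all genes. When only the groups compared entered the fit, 1 gene was called in Heat-HL. The lowest adjusted p belonged to ATMG00060 in Heat (0.239) and Heat-HL (0.16), at −0.28 and −0.38. In HL it belonged to ATMG00090 (0.148), at −0.23.

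Humidity had no call relative to the median, against 5.89% of all genes tested. In limma 3 genes were at an unadjusted p under 0.05, against 18.6% of all genes. Loess gave 1 call, against 8.74% of all genes. That call was ATMG00060, 0.34 lower (adjusted p 0.0368). Its Humidity libraries held 7.02, 7.01 and 6.85, all below the control, and relative to the median the difference was −0.35 with an adjusted p of 0.0516. ATMG00513 held 9.18, 9.16 and 10.28 in Humidity. All 3 lay above the control, and replicate 3 stood far above the other two. Its difference of 0.58 did not pass (adjusted p 0.0932). ATMG00516 had the same shape, with 7.89, 8.02 and 8.82.

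**Figure D3:**
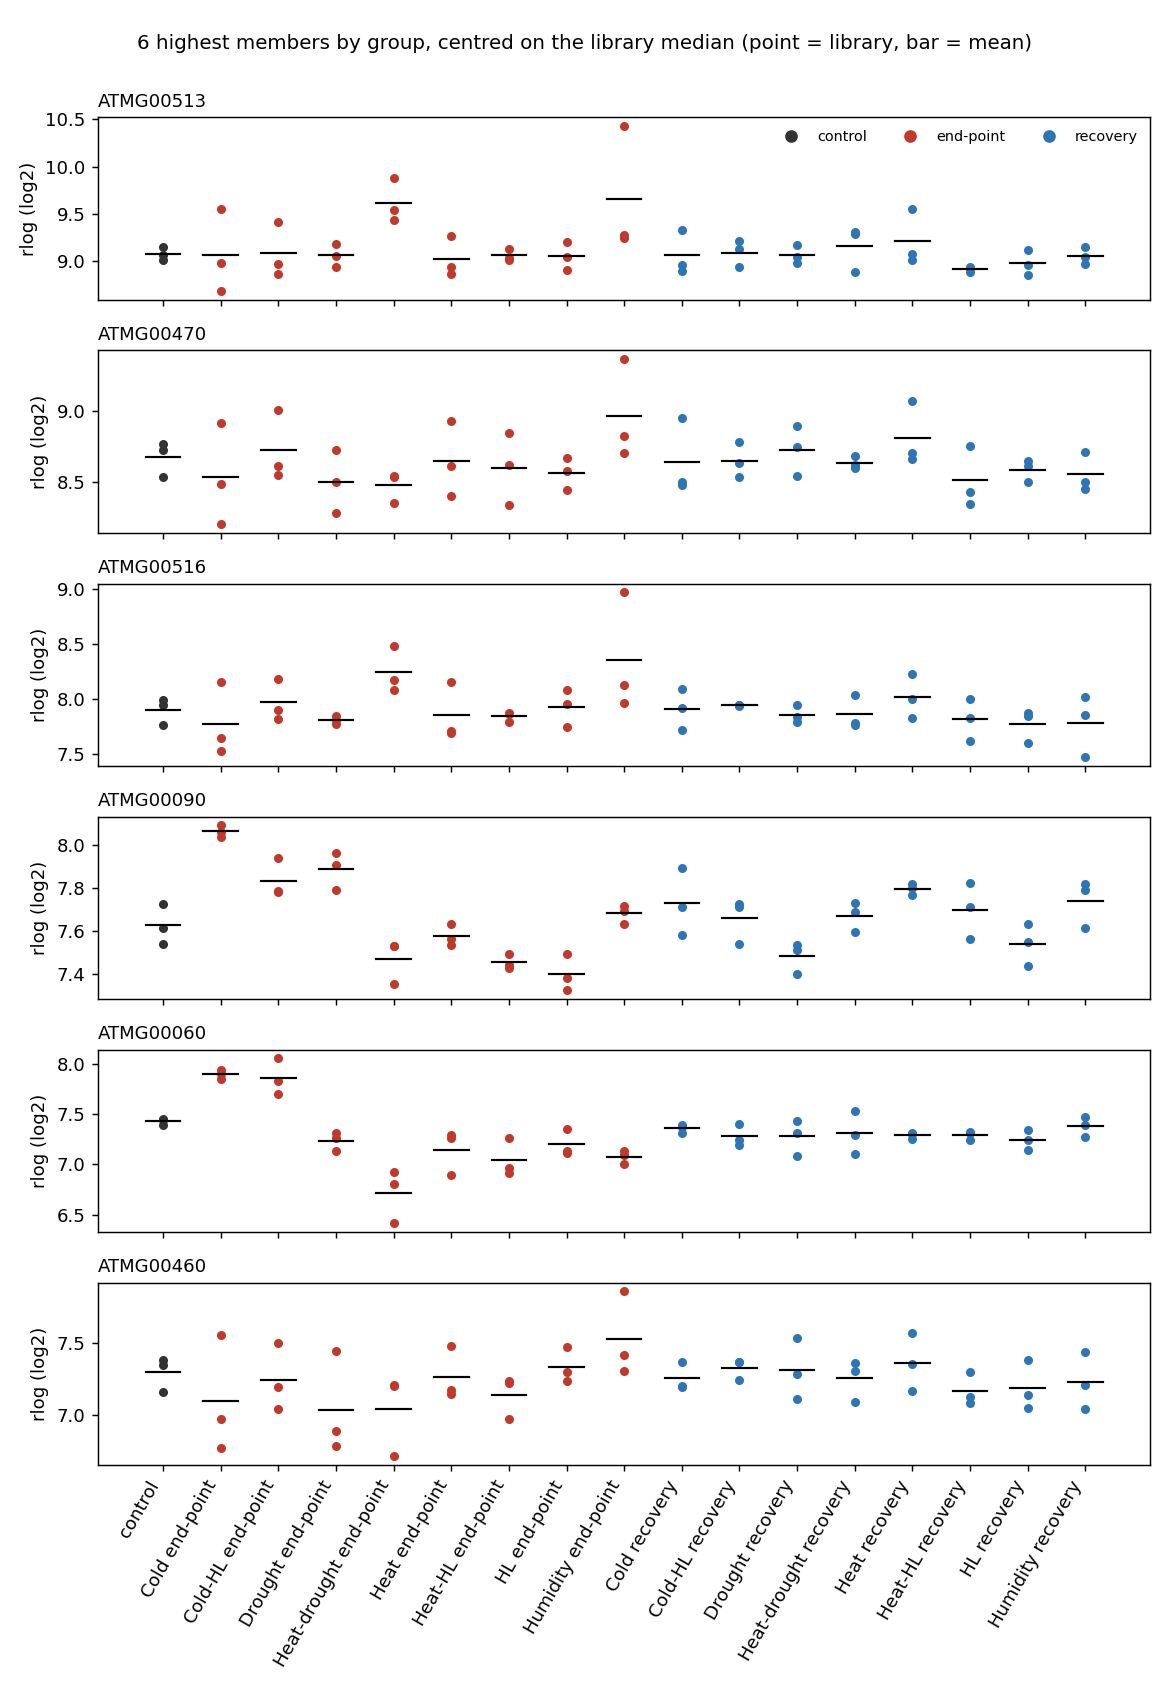
Values of the 6 highest mitochondrion-encoded genes in every library (rlog, log2, after centring on the library median) by group, with a bar at the mean of 3 libraries. ATMG00060 and ATMG00090 are high in Cold and Cold-HL, ATMG00060 is lowest in Heat-drought end-point, and 1 Humidity end-point library is high in the other 4 genes.

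No gene passed the test between recovery and control. In all 8 recovery comparisons limma called 0 of the 14 genes and 0% of all genes tested. At an unadjusted p under 0.05 there were 2 of the 14 genes in HL recovery, 1 in Heat recovery and 0 in the others. Of all genes tested, 8.79% in HL recovery and 1.19% in Heat recovery were under that threshold. The share was 15.01% in Drought and 11.96% in Cold-HL recovery, and 1.005% to 2.104% in the remaining recovery groups. Cyclic loess also called 0 of the 14 in all 8 comparisons, and 0% of all genes except 0.0105% in Drought recovery. ATMG00060 returned from 8.10, 8.14 and 7.97 in Cold to 7.19, 7.14 and 7.25 in Cold recovery, near the control values of 7.18 to 7.38. ATMG00513 returned from a Heat-drought mean of 10.19 to 9.12, 9.11 and 8.81.

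Recovery against end-point uses no control library. ATMG00060 fell by 0.54 ± 0.11 (SE, n = 3; limma adjusted p 0.00024) after Cold and by 0.58 ± 0.11 after Cold-HL, relative to the median. Without Cold-HL recovery replicate 2, the library with low leaf markers, the latter difference was −0.64 and 8 genes were called after Cold-HL. ATMG00090 fell by 0.34 after Cold and by 0.41 after Drought. After Heat-drought, ATMG00513 fell by 0.46 (adjusted p 0.0412) and ATMG00516 by 0.38 (adjusted p 0.0436), while ATMG00060 rose by 0.60 relative to the median. As deposited ATMG00060 differed there by −0.12, so its rise depended on the scaling.

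The fall of ATMG00513 after Heat-drought was not called under loess, at −0.36 with an adjusted p of 0.107, or with quantile scaling, at −0.29 with an adjusted p of 0.188. It was also lost without Heat-drought end-point replicate 2 (adjusted p 0.0519) or 3 (0.194), or without recovery replicate 3 (0.194). The fall of ATMG00516 was not called with quantile scaling, at −0.37 with an adjusted p of 0.0545. It was also lost without end-point replicate 1 (adjusted p 0.0515) or 3 (0.216), or without recovery replicate 2 (0.113) or 3 (0.117). After Humidity, ATMG00516 fell by 0.58 (adjusted p 0.0332), and without end-point replicate 3 the difference was −0.27 (adjusted p 0.5). That call was also lost without recovery replicate 1 (adjusted p 0.0765) or 2 (0.234).

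The counts of calls between recovery and end-point were 6 of 14 after Cold, 9 after Cold-HL, 8 after Drought and 11 after Heat-drought. The shares of all genes tested that were called were 38.1%, 59.3%, 63.9% and 78.0%. After Humidity 1 of 14 was called, against 7.55%. After Heat, Heat-HL and HL limma called 0, against 0.757%, 0.184% and 1.84% of all genes tested. At an unadjusted p under 0.05 there were 2, 2 and 0 genes, against 14.4%, 8.87% and 14.1% of all genes. Loess called 0 there too, against 2.33%, 0.473% and 3.24%. In the lower set, called genes were all higher in recovery relative to the median, and none of the 14 was called higher as deposited. Of all genes tested 1.91%, 3.57%, 10.5% and 13% were called higher as deposited after Cold, Cold-HL, Drought and Heat-drought.

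Over all 17 groups, 10 of the 14 genes differed in limma's F test relative to the median, against 93.6% of all genes tested. The 4 that did not pass were ATMG00513 (adjusted p 0.0603), ATMG00516 (0.0945), ATMG00470 (0.421) and ATMG00460 (0.426). These 4 also had the widest spread within groups, with a pooled SD of 0.21 to 0.26, while ATMG00090 had 0.09 and ATMG00060 0.14. As deposited the 4 passed, and ATMG00070, ATMG00210, ATMG00220 and ATMG00850 did not, against 92.8% of all genes tested.

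The same 4 genes of the upper set varied together between replicates of a group. Across the 51 libraries, deviations from the group mean correlated at 0.83 for ATMG00513 with ATMG00516 and at 0.75 for ATMG00470 with ATMG00460. The 6 pairs among the 4 genes had r from 0.69 to 0.83. Deviations of ATMG00060 against those of ATMG00513 had an r of −0.22, and ATMG00060 with ATMG00090 had 0.44. These are descriptions over libraries that share their groups and their scaling.

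Humidity end-point replicate 3 lay above its group mean by 0.78 for ATMG00513, 0.62 for ATMG00516, 0.40 for ATMG00470 and 0.33 for ATMG00460. In Cold end-point replicate 1 the 4 genes lay above it by 0.48, 0.38, 0.38 and 0.45. ATMG00060 and ATMG00090 deviated there by −0.07 and 0.04 in the former library and by −0.05 and 0.03 in the latter. Whether RNA preparation differed for these libraries was not tested.

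**Figure D4:**
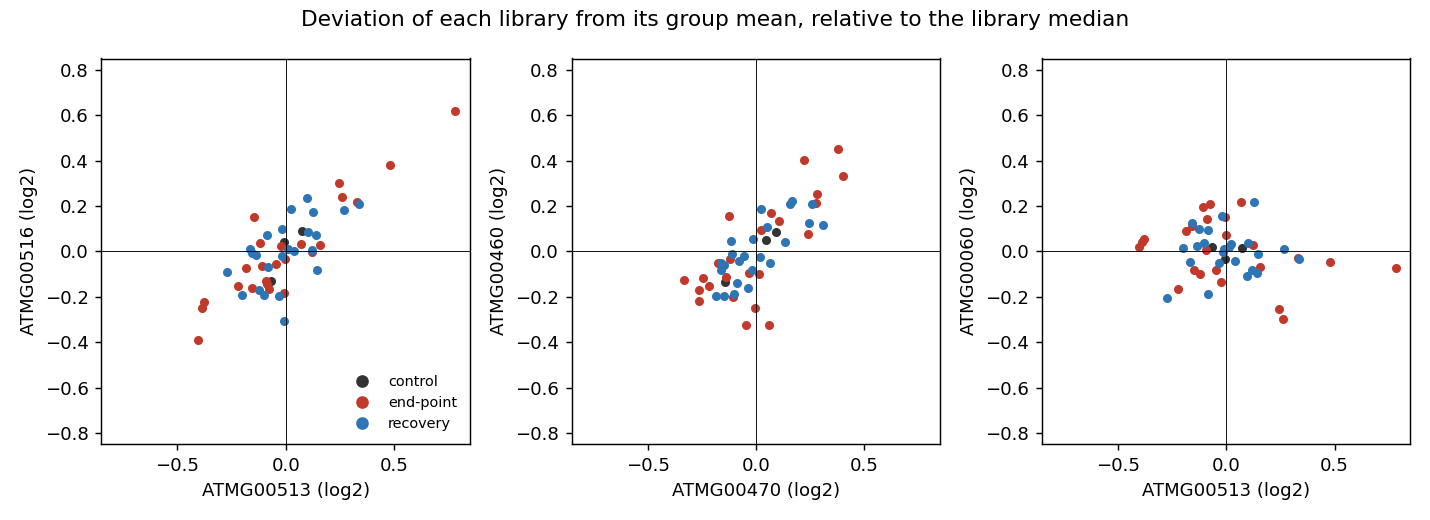
Deviation of each of 51 libraries from its group mean (log2, relative to the library median) for 3 pairs of mitochondrion-encoded genes. ATMG00513 and ATMG00516 (r 0.83), and ATMG00470 and ATMG00460 (r 0.75), lie along a rising line, and ATMG00513 and ATMG00060 (r −0.22) do not.

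A difference between a pair of genes within a library does not change when a single value is subtracted from the library, as in centring on the median, but it can change with quantile or loess scaling. The pairs below were chosen after their values were seen, and whether the identifiers of a pair are parts of the same gene was not tested. ATMG00513 minus ATMG00060 was 1.56, 1.70 and 1.67 in control and 2.63, 2.62 and 3.46 in Heat-drought. The Heat-drought libraries all lay above the control. The change of the mean from control was 1.26 as deposited, 1.04 under loess and 0.893 with quantile scaling. In Humidity the differences were 2.15, 2.15 and 3.43, also above the control. In Cold they were 1.70, 0.74 and 1.08, and in Cold-HL 0.92, 1.58 and 1.17. Cold-HL overlapped the control in 1 library and Cold in 1. In the other end-point groups the means were 1.82 to 2.01, and in the recovery groups 1.62 to 1.92. Every library of Drought and Heat-HL end-point also lay above the control, with means of 1.82 and 2.01. So did every library of Heat-drought and Heat recovery, with means of 1.85 and 1.92.

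ATMG00513 minus ATMG00516 moved little, with group means from 1.10 to 1.37. ATMG00090 minus ATMG00060 was 0.20 ± 0.09 (SD, n = 3) in control. It was 0.76 ± 0.17 in Heat-drought, 0.65 ± 0.05 in Drought and 0.61 ± 0.10 in Humidity. In Cold it was 0.17 ± 0.07, and in Cold-HL −0.02 ± 0.10. Each Drought, Heat-drought and Humidity library lay above the 3 control libraries for this pair, and so did each library of the Heat, Cold-HL and Humidity recovery groups, with means of 0.51, 0.38 and 0.36.

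**Figure D5:**
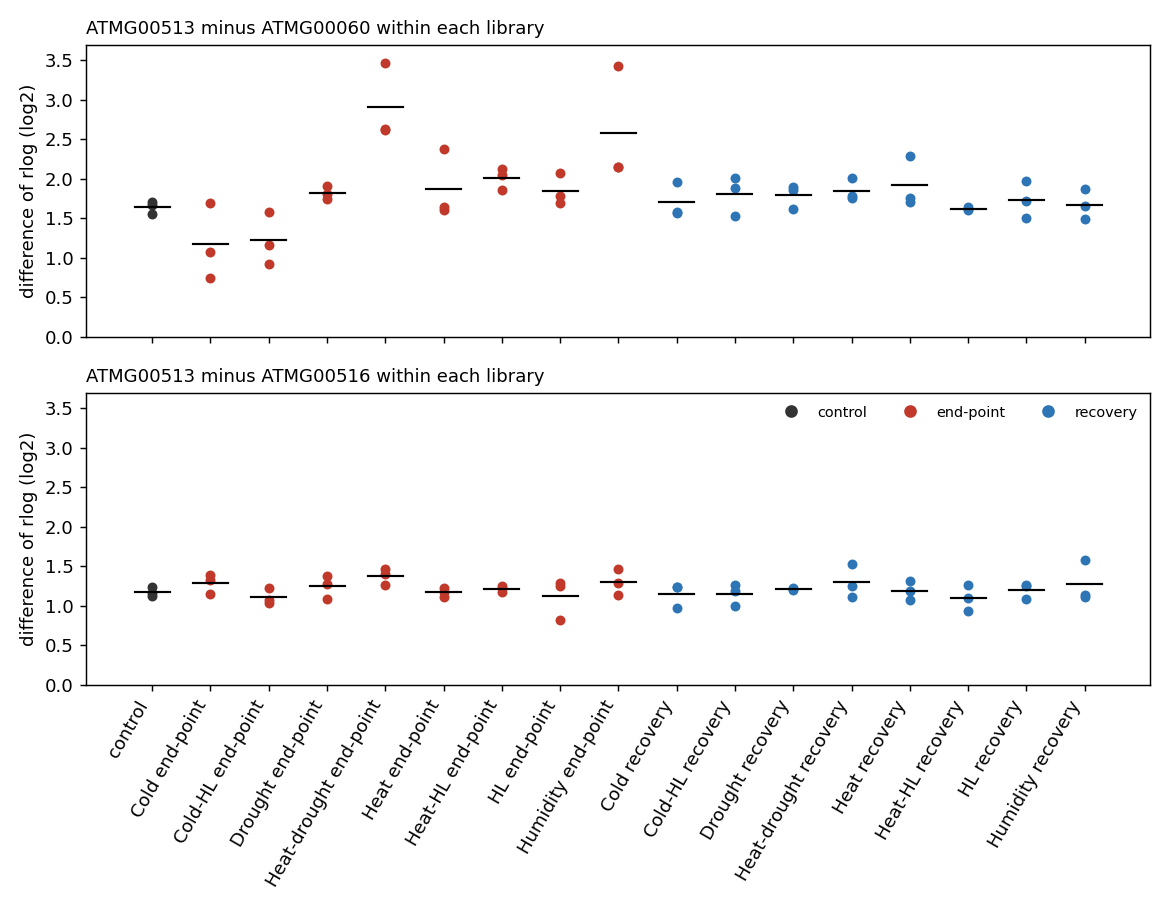
Difference between the rlog values of a pair of mitochondrion-encoded genes within each library (log2), by group, with a bar at the mean of 3 libraries. ATMG00513 minus ATMG00060 is highest in Heat-drought (mean 2.91) and Humidity (2.58) end-point and lowest in Cold (1.17), while ATMG00513 minus ATMG00516 stays between 1.10 and 1.37.

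The genes most like the median profile of the 14 were weakly expressed ones. Over 51 libraries, relative to the median, the closest was the chloroplast-encoded ATCG00690 (r 0.88, mean rlog 3.14). The next 9 had r from 0.86 to 0.88 and means from 3.01 to 4.27, among them GXM3. Single genes of the upper set had other neighbours. For ATMG00513 they were ATMG00516 (r 0.87), the chloroplast-encoded ATCG00020 (0.77) and GDH2 (0.72), a glutamate dehydrogenase of mitochondria. ATMG00470 was closest to ATMG00460 (0.78), then to ATCG00490 and ATCG00340 (both 0.75). For ATMG00460 they were ATCG00340 and ATCG00350 (both 0.79).

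ATMG00060 was closest to nuclear genes: AT3G14890, AT2G45300 and iPGAM1, a phosphoglycerate mutase of glycolysis, each with an r of 0.87. ATMG00090 was closest to AT1G60680 (0.73), AT4G07825 (0.70) and TH1 (0.69), an enzyme of thiamine synthesis. So 4 of the 6 genes of the upper set had organelle genes as their first neighbour, and ATMG00060 and ATMG00090 had nuclear ones.

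Nuclear genes for mitochondrial proteins give the setting, from lists chosen by function. Of all genes tested, 18.3%, 23.3%, 25.3% and 32.2% were called higher relative to the median in Cold, Cold-HL, Drought and Heat-drought, and 21.7%, 29.4%, 42.2% and 46.5% lower. As deposited 54.2%, 68.2%, 61.4% and 66.7% were called higher and 2.17%, 2.53%, 9.57% and 13.2% lower. The counts of the lists are to be read against these shares. All 7 chaperones and proteases listed rose in Cold and all 7 in Cold-HL, with a median of 0.63 and 1.10 relative to the library median. The median over all genes tested was −0.04 and −0.05. HSP60-2 and HSP60, which fold imported proteins, rose by 0.93 and 0.80 in Cold. LON1, a protease of the matrix, rose by 1.28 in Cold-HL. In Heat-drought 2 of the 7 rose and 3 fell, with HSP60-2 falling by 1.02 and MTHSC70-2, a matrix Hsp70, rising by 0.92. As deposited 5 were called higher and 1 lower there, so the balance depended on the scaling.

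Of 37 nuclear respiratory subunits, 22 rose and 1 fell in Cold and 34 rose and 1 fell in Cold-HL, with medians of 0.27 and 0.44. SDH1-1, the flavoprotein of complex II, rose by 0.69 and 1.06. CYTC-1 and CYTC-2, the cytochromes c that carry electrons to complex IV, rose by 0.81 and 0.83 in Cold-HL. GAMMA CAL2, of the carbonic anhydrase domain of complex I, was called 0.20 lower in Cold and 0.16 lower in Cold-HL, but was 0.14 and 0.35 higher as deposited. Complex II is encoded in the nucleus in Arabidopsis, so it has no partner among the ATMG genes.

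In Drought 7 of the 37 were called higher and 14 lower, and in Heat-drought 12 and 16. As deposited 30 and 33 were called higher and 1 lower in each, so the balance depended on the scaling. SDH1-1 rose by 1.29 in Drought and 2.1 in Heat-drought, and SDH2-1, the iron-sulphur subunit, by 0.45 and 1.41. AT3G15640, a subunit of complex IV, fell by 0.88 and 1.08, and also by 0.35 in each as deposited. GAMMA CA3 of complex I was called 0.69 lower in Heat-drought relative to the median but was 0.05 higher as deposited.

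Genes for mitochondrial RNA synthesis and processing were split. Of 17 tested, 10 were called higher and 2 lower in Cold, 11 and 4 in Cold-HL, 4 and 5 in Drought, and 7 and 6 in Heat-drought. As deposited none was lower in these 4, and 14, 16, 13 and 14 were higher. PMH1, a DEAD-box helicase for intron splicing, rose by 0.72 in Cold and 1.18 in Cold-HL, and was called lower by 0.49 in Drought but was 0.05 higher as deposited. MORF8, an RNA editing factor, rose by 0.67 and 1.02 in the cold groups. PMH2 rose by 0.65 in Heat-drought. WTF9, a splicing factor of mitochondrial introns, was called 0.59 lower there but was 0.14 higher as deposited.

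Alternative respiration genes bypass part of the main chain, and they were listed together with genes of mitochondrial stress. Of 14 genes tested from this joint list, 7 were called higher and 4 lower in Drought, and 6 and 4 in Heat-drought. The medians were 0.47 and 0.31, against −0.13 and −0.15 over all genes. AOX1A, the alternative oxidase that passes electrons from ubiquinol to oxygen, rose by 1.87 ± 0.37 (SE, n = 3) in Drought and 2.20 ± 0.37 in Heat-drought. It fell by 1.03 in Cold relative to the median (limma adjusted p 0.026), where the difference as deposited was −0.69 with no call. AOX1D rose by 3.48 in Heat-drought. NDB2, an external NADH dehydrogenase, rose by 1.2 in Drought, and NDB1 fell by 1.04 in Heat-drought. In Cold and Cold-HL 2 and 1 were called higher and 3 and 2 lower. As deposited 5, 7, 9 and 10 were called higher in Cold, Cold-HL, Drought and Heat-drought, and 1 was lower, in Heat-drought.

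The chloroplast-encoded genes are the other organelle set of the table. Of 62 tested, 36, 45, 54 and 56 were called lower relative to the median in Cold, Cold-HL, Drought and Heat-drought, with medians of −0.31, −0.42, −0.48 and −0.66. As deposited 0, 0, 3 and 6 were lower and 11, 12, 8 and 11 higher, and under loess 11, 13, 19 and 36 were lower. Under loess 15.2%, 20.6%, 29.7% and 36.7% of all genes tested were called lower. The mitochondrial and chloroplast genes were not set against each other in a test, and the comparisons with control share its 3 libraries.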

How the data were processed

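RNA-seq of 57 samples was described in the labels, and 51 columns of the table could be matched to them by name; another 6 columns of per-sample values were not used. Per the submitters' processing notes, the authors worked with DESeq2, featureCounts, STAR, Trimmomatic and the build TAIR10; tool versions are not given in the sources used here. The authors deposited rlog values, which are on a log2 scale and pull genes with few reads towards their mean. Depth is unknown, and no interval rests on it.

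Genes with a mean rlog of 3 or more (19010) were tested with limma 3.58.1 in R 4.3.3. One mean per group was fitted to all 51 libraries, with a trend in the variance and robust moderation, after the library median was subtracted, and p-values were adjusted by Benjamini-Hochberg within each comparison at 0.05. The fit was tested on simulated data. Alternatives were the values as deposited, quantile and cyclic loess scaling, no filter, only the groups compared, a replicate block, and each replicate left out. Cyclic loess was added after the data had been seen. All comparisons with control use the same 3 libraries, which come from the recovery setup.

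Replicate numbers are shared by all groups. In 3 of 24 comparisons (Heat, Heat-HL and HL end-point against control) all same-numbered libraries deviated together, with r above 0.1 in each, and over all comparisons r ran from −0.73 to 0.43.

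Sequences and coordinates are from RefSeq TAIR10.1, matched with BLAST+ 2.17.0. Gene names come from RefSeq tables, with ATMG genes named only where the notes of their nuclear copies do so. Every ATMG gene was accounted for. Named were the genes of known function at a mean of 3 or more, up to 5 called with the largest differences per comparison, the 5 highest and 5 lowest, and the largest rises and falls of the nuclear lists. Members and lists were chosen with earlier results of these data known.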

Additional observations from a re-analysis of the deposited data

Results flagged for a closer look

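In 7 cases the values after recovery differed from those at the end of the stress, past the test both relative to the library median and as deposited, with the same sign. They were singled out because the same gene differs between the setups of a stress. The share of all genes that passed both tests with the same sign was not computed. Relative to the median alone, 38.1%, 59.3%, 63.9%, 78% and 7.55% of all genes tested were called in Cold, Cold-HL, Drought, Heat-drought and Humidity. As deposited, the medians over all genes tested were −0.30, −0.45, −0.30, −0.57 and −0.04 there. No mitochondrion-encoded gene was called higher in recovery as deposited, so the rule could pick only falls. ATMG00060 was lower in recovery by −0.54 in Cold and −0.58 in Cold-HL, and ATMG00090 by −0.34 in Cold and −0.41 in Drought, on the log2 scale relative to the median. In Heat-drought ATMG00513 differed by −0.46 and ATMG00516 by −0.38, and in Humidity ATMG00516 differed by −0.58. The last 3 calls were each lost when single libraries were left out, and both Heat-drought calls with quantile scaling, as given with the results. End-point plants were harvested under the stress and recovery plants after 3 days without it, and they also began the stress on different days, so these cannot be told apart. With 3 libraries a group, single libraries were not tested for standing apart.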

How the results depend on the processing

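Depth is unknown and limits every value, and 132 of the 146 genes were too low to be tested. The cause of differences between scalings was not tested, beyond the values of nuclear genes of like level given with the results. Counts of the 14 genes called against control that moved by over 1.5 times were these. As deposited there were 4 in Cold and 5 in Drought. With quantile scaling there were 3 in Cold, 3 in Cold-HL, 2 in Drought, 4 in Heat-drought and 1 in Humidity. Of all genes, 5951, 7903, 11762, 14009 and 1755 were called with it. With cyclic loess there were 3, 4, 1, 5 and 1, against 6364, 8399, 11750, 14258 and 1661 of all genes. Between recovery and end-point, Drought gave 3, 1 and 1 and Heat-drought 7, 4 and 7 as deposited, with quantile and with loess. Of all genes, 12405, 11042 and 11217 were called there in Drought and 15055, 13843 and 14233 in Heat-drought. Quantile gave 3 in Cold and 3 in Humidity, with 5506 and 2049 of all genes called. Counts that moved less include 12 against control in Cold-HL as deposited and, between recovery and end-point as deposited, with quantile and with loess, 7, 6 and 7 in Cold-HL. Of all genes, 13444 were called in that Cold-HL comparison with control, and 12844, 7970 and 8511 between recovery and end-point. With only the groups compared, Heat-HL end-point gave 1 call, and Humidity recovery against end-point 0.

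Leaving out 1 replicate, the counts against control ran from 3 to 9 in Cold, 7 to 10 in Cold-HL, 8 to 10 in Drought, 8 to 10 in Heat-drought and 0 to 2 in Humidity, and were 0 in Heat, Heat-HL, HL and all 8 recovery comparisons. Between recovery and end-point they ran from 5 to 8 in Cold, 8 to 10 in Cold-HL, 6 to 10 in Drought, 8 to 10 in Heat-drought and 0 to 2 in Humidity. The F test over groups called 10 to 12. Shares over all genes were not computed with a replicate left out, so these counts have no background beside them.

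With the replicate number as a block, counts against control were 7 in Cold, 9 in Cold-HL, 8 in Drought and 10 in Heat-drought, and 0 in the other stresses. Between recovery and end-point they were 7, 10, 8 and 11, with 1 in Humidity. Shares over all genes were not computed for the block, or for only the groups compared. In the 3 comparisons where the numbers pair the libraries the block left 0 calls, and it changed no call of a gene singled out in a comparison. No filter on low values changed no such call either.

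Signs of many called genes turned with the scaling. Of the 33 calls against control, 25 turned as deposited, 11 with quantile and 13 with loess, and of the 35 between recovery and end-point 22, 14 and 15 did. Values follow only for the genes singled out in each comparison. As deposited against control, Cold gave ATMG00900 0.026, ATMG00850 0.058 and ATMG01390 0.0705. Cold-HL gave ATMG00210 0.088, ATMG00900 0.161, ATMG00850 0.164 and ATMG00070 0.185. Drought gave ATMG00750 0.0233, ATMG00220 0.040, ATMG00210 0.0504, ATMG00900 0.0913 and ATMG00070 0.106. Heat-drought gave ATMG00060 0.0186, ATMG00210 0.0497 and ATMG00750 0.0504. As deposited between recovery and end-point, Cold gave ATMG00850 −0.0399 and ATMG00070 −0.0886. Cold-HL gave ATMG00850 −0.0525, ATMG00070 −0.0752 and ATMG01390 −0.115. Drought gave ATMG00220 −0.00843, ATMG00210 −0.0231 and ATMG00070 −0.0462. Heat-drought gave ATMG00750 −0.117, ATMG00060 −0.121 and ATMG00090 −0.517.

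With quantile scaling against control, Cold gave ATMG00850 0.0119, and Cold-HL gave ATMG00210 0.0322, ATMG00900 0.0322, ATMG00850 0.0865 and ATMG00070 0.106. Between recovery and end-point, Cold gave ATMG00850 −0.00711 and ATMG00070 −0.0569. Cold-HL gave ATMG00210 −0.0434, ATMG00850 −0.132, ATMG00070 −0.149 and ATMG01390 −0.113. Heat-drought gave ATMG00750 −0.00393. With cyclic loess against control, Cold gave ATMG00850 0.0255. Cold-HL gave ATMG00210 0.0641, ATMG00900 0.0484, ATMG00850 0.102 and ATMG00070 0.146. Drought gave ATMG00070 0.00675. Between recovery and end-point under loess, Cold gave ATMG00850 −0.0156 and ATMG00070 −0.0789. Cold-HL gave ATMG00210 −0.135, ATMG00850 −0.17, ATMG00070 −0.22 and ATMG01390 −0.0966.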
